A study of Mus musculus with 6 samples.

Results

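The genes described here are 30 targets of hypoxia-inducible factor (HIF) that act outside glycolysis, picked by symbol from the 52459 rows of the deposited count table. All 30 had a row. 28 of them passed the filter on low counts and were tested among 19565 genes, while Mt2 and Epo were too scarce. The samples were whole brains of C57BL/6 mouse embryos at E14.5. The 3 knockout embryos carried Mfsd7c-/-, and the 3 others were wild type for that gene, which is now called Flvcr2 and encodes a membrane transporter. The labels name no treatment, and which part of the gene was deleted was not given in the sources used here. At issue is which transcripts differ between the brains of the 2 genotypes. Litters and embryo sex are not stated, and nothing in the labels says how the embryos relate, so a p-value speaks only of the spread among the 6 libraries. Values in threes are for replicates 1, 2 and 3, in that order.

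When oxygen is plentiful, prolyl hydroxylases mark the alpha subunit of HIF for destruction by the von Hippel-Lindau ubiquitin ligase. When oxygen is short, the subunit escapes this, pairs with Arnt and binds short DNA elements near its target genes. Besides glycolytic enzymes, the targets include repressors that temper the response, proteins of lipid and glycogen storage, enzymes of pH control, mitochondrial proteins, metal-binding proteins and secreted factors. In the embryonic brain the pathway is known for its part in vessel growth.

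The targeted gene was lower in every library labelled knockout, with 119, 129 and 130 counts against 206, 291 and 259 (-0.96 on the log2 scale, SE 0.147, edgeR adjusted p = 0.0271). Totals ran from 43784619 to 50549673 counts a library. Neuronal markers summed to 5549 to 6477 CPM (counts scaled to library totals) and radial glia markers to 1752 to 1835 CPM, and the groups overlapped in both sums. The sums of the 8 mural markers, of pericytes and smooth muscle, did not overlap, at 255, 305 and 306 CPM in knockout against 339, 359 and 350 CPM. Of these 8, 1 fell, Rgs5 (-1.28 on the log2 scale, edgeR adjusted p = 9.4e-04), and 0 rose. Rgs5 was at 36.8, 43.6 and 37.4 CPM in knockout against 105, 96.7 and 84.3 CPM in wild-type replicates. In all, 2 of the 8 lay lower in every knockout library (6.58% of all tested genes did), so the sum does not stand for each marker. Some libraries stood apart in other measures. Knockout replicate 1 and wild-type replicate 1 held most epidermal RNA, with 7 keratinocyte markers summing to 279 and 229 CPM against 8.78 to 56.0 CPM elsewhere. Wild-type replicates 2 and 3 held Hox RNA of the hindbrain and spinal cord, at 134 and 38.2 CPM over 10 genes against at most 3.79 CPM elsewhere. The genotypes did not overlap in this sum either, at 2.34, 0.591 and 2.19 CPM in knockout against 3.79 CPM or more in wild-type replicates. Of the 10 Hox genes, 7 lay lower in every knockout library (6.58% of all tested genes did), and 0 were called. Embryonic forms made up 23.3% to 26.5% of beta-globin counts in knockout replicate 2 and wild-type replicates 2 and 3, and 2.80% to 5.03% in the rest. Wild-type replicate 2 was the 1 library with abundant Xist, the RNA of the inactive X chromosome, at 82198 counts against at most 27. The part of these differences in the results below was not tested, and calls are given with and without those libraries.

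The core of the HIF binding element, ACGTG or GCGTG, was searched on both strands of RefSeq promoter windows (GRCm38.p6) that run from 250 bases before to 50 bases after a start site. Of the 30 genes, 24 matched an entry, with 31 windows. The core was present in 24 of the 31 windows (77.4%), against 43.8% of all 32851 windows and 58.1% of the 16562 windows of tested genes. By gene it was present for 21 of 24 (87.5%), the exceptions being Vldlr, Car12 and Lgals3bp. The share by gene was 46.7% over all genes with a window and 63.8% over the tested ones. Of the 24 genes, 11 that were tested had a core and lay higher in every knockout brain. Stretches are shown for the 4 of these 11 with the highest fold changes, chosen after their values were seen. Capitals mark the core on either strand, neighbouring matches may overlap, and all are written 5′ to 3′ on the strand of the gene. The Higd1a stretch is chr9:121857848-121857876 (minus strand, 80 to 52 bases upstream, 2 cores), and that of Fam162a is chr16:36071601-36071656 (minus strand, 95 to 40 bases upstream, 4 cores). The Ankrd37 stretches are chr8:46000065-46000100 and chr8:45999851-45999880 (minus strand), and that of Mt1 is chr8:94178989-94179029 (plus strand, 100 to 60 bases upstream).
Higd1a: ggtctagcctGCGTGCGTGgcgttcgcgg
Fam162a: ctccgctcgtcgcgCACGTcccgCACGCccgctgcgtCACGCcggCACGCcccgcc
Ankrd37, far: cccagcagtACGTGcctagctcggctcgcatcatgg
Ankrd37, near: ggctgcacatgtcagtgtttgggtACGTGa
Mt1: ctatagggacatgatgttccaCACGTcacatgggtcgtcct

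These matches are a description of the letters in each window. They do not show binding, and the absence of a match in the 2 Vldlr windows says nothing about elements elsewhere in that gene. Among the tested genes with a window, the median log2 fold change was 0.27 over the 19 with a core and -0.04 over the 3 without one, a group that holds Vldlr, which rose. The Higd1a stretch and the nearer Ankrd37 stretch overlap annotated exons of their own genes in GENCODE M21.

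Of the 28 tested genes, 4 rose in the knockout brains, 0 fell and 24 did not pass (edgeR quasi-likelihood test, false discovery rate (FDR) 0.05 over all genes). Among all tested genes 0.624% were called higher and 0.0358% lower. The 4 were Bhlhe40, a repressor of transcription, Vldlr, a lipoprotein and reelin receptor, and the mitochondrial protein genes Higd1a and Fam162a. At an unadjusted p under 0.05, 14 of the 28 were higher and 1, Angptl4, was lower, against 905 and 677 of all 19565 tested genes. In the same 14 every knockout library lay above every wild-type library, a pattern shown by 7.84% of all tested genes, and in 1 the order was opposite, against 6.58%. The median log2 fold change over the 28 was 0.25, beside -0.01 over all tested genes. The genes were listed with results of these libraries known, so their counts are a description of this group and not a separate line of evidence.

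**Figure D1:**
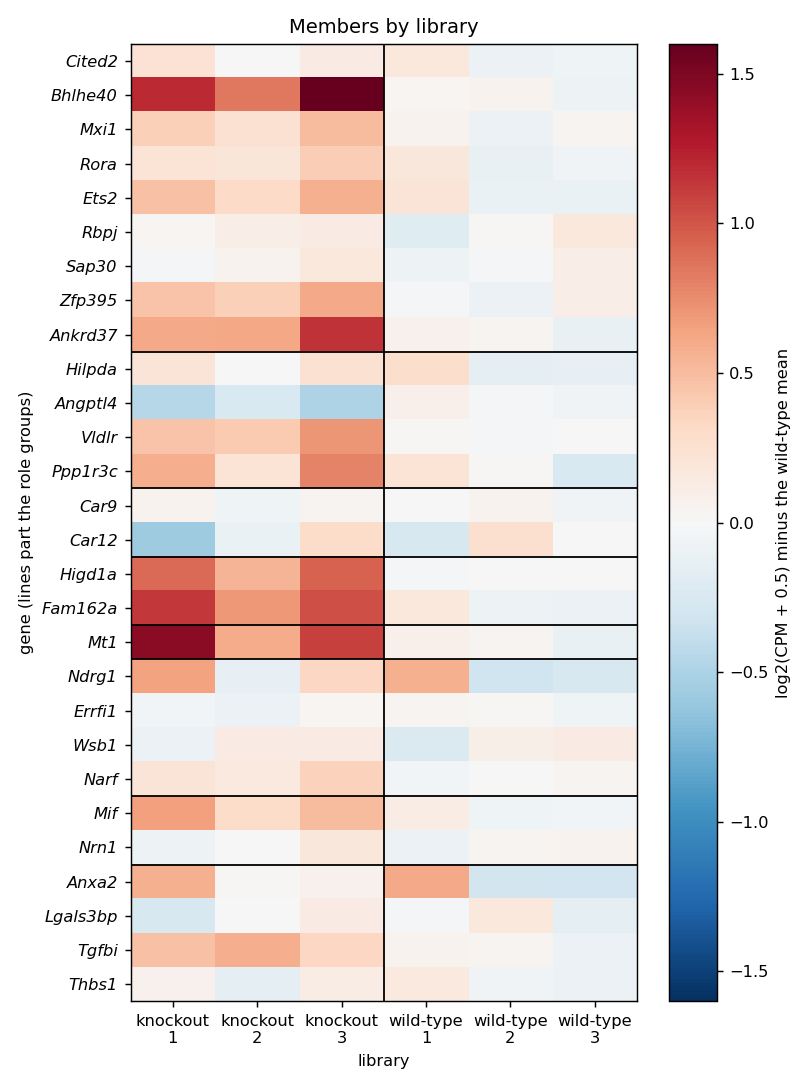
Colours give log2(CPM + 0.5) minus the wild-type mean for each of the 28 tested genes (rows, parted by role) in each of the 6 libraries (columns). Bhlhe40, Higd1a, Fam162a and Mt1 are the reddest rows over the knockout columns, Angptl4 is blue in them, and Ndrg1 and Anxa2 are red in replicate 1 of both groups.

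The number of calls changed with the libraries used, while the 4 genes kept their direction in all 15 other fits. Over single libraries left out, the log2 fold change ran from 1.08 to 1.58 for Bhlhe40, 0.44 to 0.59 for Vldlr, 0.74 to 0.94 for Higd1a and 0.88 to 1.09 for Fam162a. Fits with fewer libraries also have fewer degrees of freedom. Without knockout replicate 1 the number called higher was 0, with 0.240% of all genes called higher. It was also 0 without wild-type replicate 2 (0.165% of all genes) and without wild-type replicate 3 (0.200%). With all libraries the number called higher was 4 (0.624%), and 14 at an unadjusted p under 0.05, a looser threshold not given for the smaller fits. Without knockout replicate 3 it was 1, Vldlr (0.189%). Leaving out knockout replicate 2 gave 6 (0.535%), and leaving out wild-type replicate 1 gave 8 (1.16%). It was 10 without both epidermal libraries (1.34%) and 10 with a term for the 2 beta-globin sets (1.05%). It was 0 without both Hox-bearing libraries (0.0774%), where the lone wild-type library is assumed to vary like the others.

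The tool and the threshold moved the number as well. The DESeq2 Wald test called 11 higher and 0 lower, against 1.20% and 0.278% of all genes to which it gave an adjusted p. limma-voom called 3 higher (0.567% of all genes) and 0 lower (0.0358%). In edgeR, DESeq2 size factors (0.618%) and upper-quartile factors (0.613%) gave the same 4, and no filter on low counts gave 8 (0.558%), without Bhlhe40. An FDR of 0.01 left 0 (0.230%), and a 2-fold minimum left 1, Bhlhe40 (0.348%). The authors' deposited table held 11 of these genes past an adjusted p of 0.05, all higher, beside 1.22% of its genes with an adjusted p.

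Genes that control transcription were the largest group, with 9 members. Of these 1 rose and 0 fell in edgeR, beside 0.624% and 0.0358% of all tested genes. Bhlhe40 encodes a basic helix-loop-helix repressor that is induced by hypoxia and by circadian signals (chromosome 6, 108660629 to 108666925, plus strand, GRCm38). Its level was 16.6, 12.9 and 25.1 CPM in knockout against 7.12, 7.24 and 6.56 CPM in wild-type brains. Every knockout value lay above every wild-type value, and the knockout brains differed among themselves far more than the wild-type brains did, with coefficients of variation of 34.6% and 5.19%. The means were 18.2 ± 6.30 and 6.98 ± 0.362 CPM (SD, n = 3 each), a difference of 1.38 on the log2 scale (SE 0.222, edgeR adjusted p = 0.0371). Its call was lost in limma-voom (adjusted p = 0.105) and in edgeR without any single library other than knockout replicate 2 (adjusted p from 0.0634 to 0.249). It was also lost without the epidermal pair (edgeR adjusted p = 0.262), without the Hox-bearing pair (0.575) and with the beta-globin term (0.0990). The fold change stayed between 1.08 and 1.58 on the log2 scale in all 15 other fits.

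With Bhlhe40, 6 of the 9 regulators lay higher in all knockout libraries, against 7.84% of all tested genes, and the further 5 did not pass. Ankrd37, a small ankyrin-repeat protein gene, was at 7.86, 7.96 and 11.7 CPM in knockout and 5.25, 5.17 and 4.57 CPM in wild-type brains (log2 fold change 0.88, SE 0.175, edgeR adjusted p = 0.0913). Zfp395, a zinc finger gene, was at 29.9, 28.3 and 33.2 against 21.4, 20.3 and 23.3 CPM (0.49, SE 0.0867, edgeR adjusted p = 0.0538). Neither gene's groups overlapped. Mxi1, an antagonist of Myc, was at 71.8, 65.2 and 78.5 against 57.3, 51.8 and 56.7 CPM (0.38 on the log2 scale, edgeR adjusted p = 0.117). Ets2, an ETS family activator, was at 38.5, 34.2 and 41.3 against 32.1, 25.7 and 25.6 CPM (0.45, edgeR adjusted p = 0.203). Rora, a nuclear receptor, was at 35.0, 34.4 and 39.7 against 34.1, 27.7 and 28.9 CPM (0.27, edgeR adjusted p = 0.499), and its wild-type replicate 1 nearly reached the knockout values. Zfp395, Ankrd37, Mxi1 and Ets2, with Bhlhe40, were past the threshold in the DESeq2 Wald test.

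The other 3 regulators overlapped between groups. Cited2, which competes with HIF for its coactivators, was at 87.9, 74.2 and 82.0 CPM in knockout and 84.4, 69.8 and 71.0 CPM in wild-type replicates. Rbpj, the DNA-binding effector of Notch, was at 112, 118 and 120 against 95.6, 111 and 124 CPM, and its lowest and highest values were both in wild-type brains. Sap30, a subunit of the Sin3 corepressor complex, was at 42.2, 44.3 and 48.1 against 40.5, 41.7 and 46.1 CPM. Rbpj and Sap30 had log2 fold changes of 0.08 and 0.07. The edgeR adjusted p was 0.801 for Cited2, 0.862 for Rbpj and 0.871 for Sap30.

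**Figure D2:**
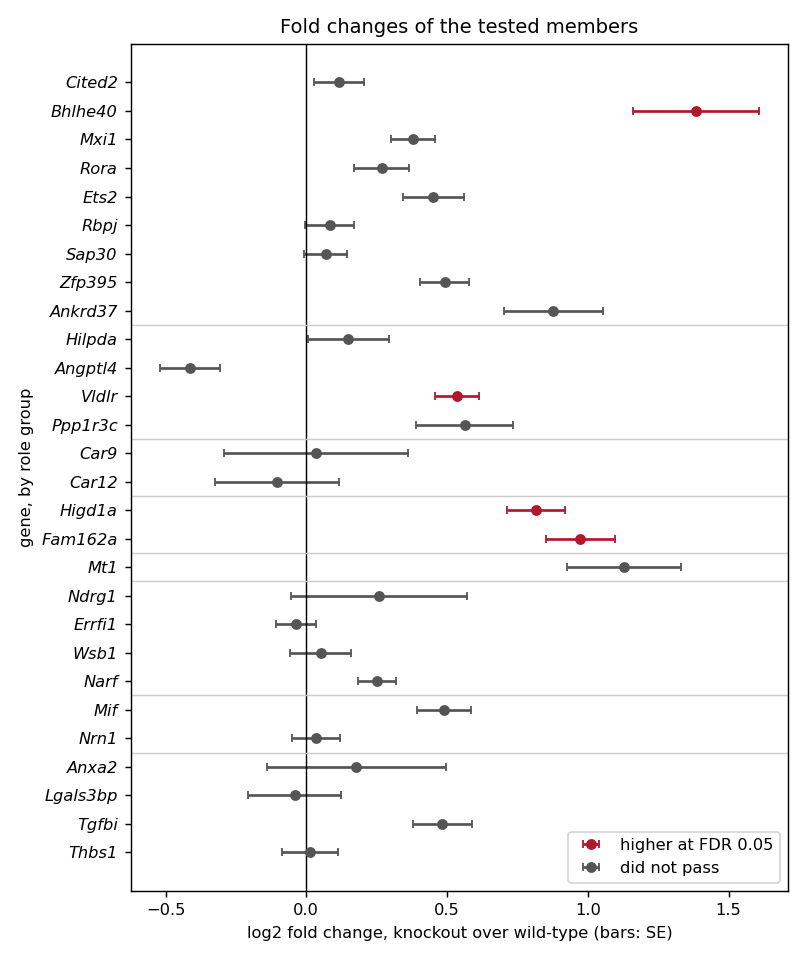
Points give the log2 fold change of each tested gene, knockout over wild-type, with its standard error as a bar, in role order from transcriptional regulators at the top to matrix proteins at the bottom. The 4 red points (Bhlhe40, Vldlr, Higd1a, Fam162a) passed an FDR of 0.05, and Mt1 lies at 1.13 in grey.

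Both mitochondrial protein genes rose. Higd1a, which encodes an inner membrane protein that binds respiratory chain complexes (chromosome 9, 121848563 to 121858362, minus strand), was at 72.0, 56.1 and 74.1 CPM in knockout brains. In wild-type brains its level was 37.9, 38.4 and 38.5 CPM. The wild-type brains were within 1.02-fold of each other, and the lowest knockout value was well above them. The log2 fold change was 0.82 (SE 0.102, edgeR adjusted p = 0.0110), with means of 67.4 ± 9.84 and 38.2 ± 0.327 CPM (SD, n = 3 each). Fam162a, a mitochondrial protein gene linked to cell death under hypoxia (chromosome 16, 36043761 to 36071594, minus strand), was at 62.9, 46.4 and 58.5 CPM in knockout and 32.0, 26.8 and 26.7 CPM in wild-type replicates. Its log2 fold change was 0.97 (SE 0.123, edgeR adjusted p = 0.0111), again with no overlap. Both calls were lost when either of knockout replicates 1 and 3, or of wild-type replicates 2 and 3, was left out, with edgeR adjusted p from 0.0530 to 0.111, while the log2 fold changes stayed at 0.74 to 0.94 for Higd1a and 0.88 to 1.09 for Fam162a. They were lost too without both Hox-bearing libraries (edgeR adjusted p = 0.273 for Higd1a and 0.310 for Fam162a). Genes on the opposite strand share 19.8% of the Fam162a exon bases (Wdr5b) and 22.5% of those of Higd1a (Gm47112) in GENCODE M21. Wdr5b had 2733 counts over all libraries, while Gm47112 had no row under that symbol in the deposited counts. Such genes also share 22.7% of the Ankrd37 exon bases (Lrp2bp) and 22.3% of those of Nrn1 (Fars2). Whether counting used strand was not given in the sources used here.

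Of the 4 genes of lipid, lipoprotein and glycogen handling, 1 rose and 0 fell in edgeR (0.624% and 0.0358% of all tested genes did). Vldlr takes up triglyceride-rich lipoproteins and, in the developing cortex, receives the reelin signal that guides neurons (chromosome 19, 27216484 to 27254231, plus strand). It was at 112, 109 and 134 CPM in knockout and 82.6, 80.2 and 81.8 CPM in wild-type replicates. The wild-type brains lay within 1.03-fold of each other and below all knockout brains. The difference was 0.54 on the log2 scale (SE 0.0787, edgeR adjusted p = 0.0227). Leaving out single libraries, the Vldlr call was lost without knockout replicate 1 (edgeR adjusted p = 0.0712) and without either of wild-type replicates 2 (0.167) and 3 (0.126). It was lost too without the Hox-bearing pair (0.305). Its fold change stayed between 0.44 and 0.59 on the log2 scale in all 15 other fits.

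Angptl4, a secreted inhibitor of lipoprotein lipase, was the 1 tested gene lower in every knockout library. It was at 9.46, 11.0 and 9.18 CPM in knockout and 13.9, 13.0 and 12.6 CPM in wild-type replicates. The log2 fold change was -0.41 (SE 0.106) and it did not pass (edgeR adjusted p = 0.246, and 0.0543 in the authors' deposited table). Its values were below 0 in all 15 other fits, from -0.50 to -0.34, and none of those called it. Ppp1r3c, which targets protein phosphatase to glycogen, was at 16.1, 12.4 and 18.7 against 12.4, 10.7 and 8.86 CPM. The lowest knockout and the highest wild-type value nearly met, and the gene did not pass (0.56, SE 0.172, edgeR adjusted p = 0.374). Hilpda, which holds back lipolysis at lipid droplets, overlapped between groups, at 11.4, 9.90 and 11.7 against 12.0, 8.79 and 8.94 CPM.

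**Figure D3:**
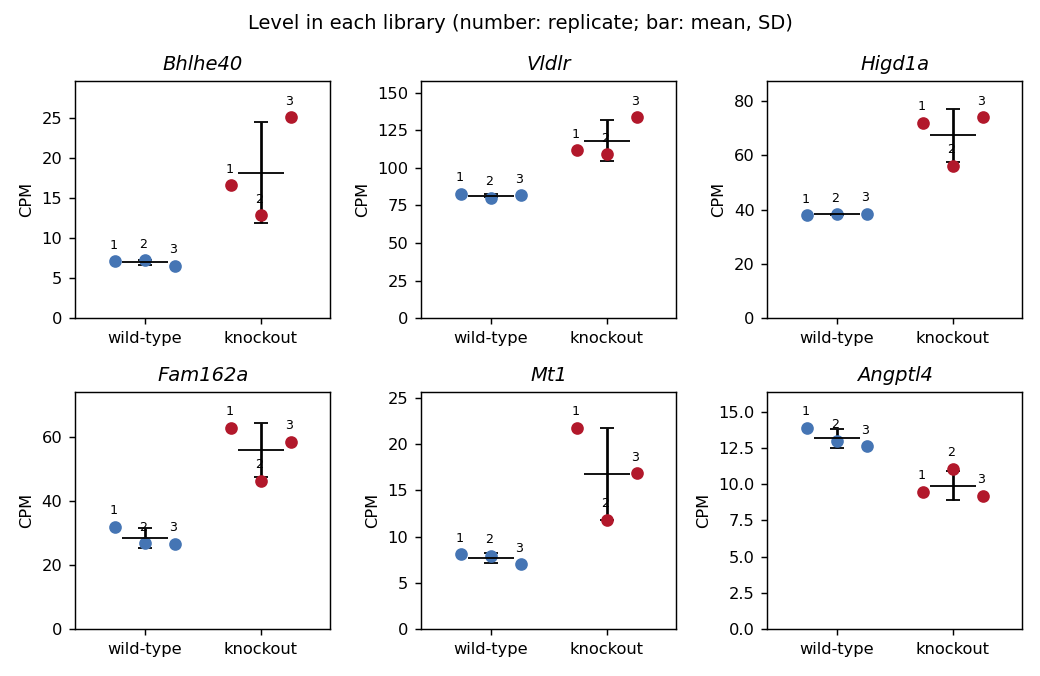
Each panel plots CPM in the 3 wild-type (blue) and 3 knockout (red) libraries, numbered by replicate, with the mean as a line and the SD as a bar. Bhlhe40, Vldlr, Higd1a, Fam162a and Mt1 lie higher in all knockout libraries and Angptl4 lies lower, while Mt1 and Angptl4 did not pass the test.

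The 2 metallothionein genes, whose proteins bind zinc and copper, lie side by side on chromosome 8 and differed widely in level. Mt1 (94179082 to 94180327, plus strand) was at 21.8, 11.8 and 16.8 CPM in knockout and 8.09, 7.92 and 7.0 CPM in wild-type replicates. No knockout value fell within the wild-type range, and the mean was 2.19 times as high, but the gene missed the threshold (log2 fold change 1.13, SE 0.202, edgeR adjusted p = 0.0607). It passed without knockout replicate 2 (edgeR adjusted p = 0.00822), without the epidermal pair (0.0206) and with the beta-globin term (0.0239). In the authors' deposited table its adjusted p was 1.6e-06. The core of the metal response element, TGCACNC or TGCGCNC on either strand, occurred in its window 23 bases upstream and at positions 3 and 21 after the start. That core is present in 25.7% of all windows, 34.6% of the windows of tested genes and 35.5% of those of the listed genes.

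Mt2 (94172664 to 94173568, plus strand) had 7, 5 and 7 counts in knockout and 2, 1 and 2 in wild-type replicates, too few for the main test. In the fit with no filter on low counts it was tested and not called. Per kilobase of exon, the wild-type mean was 6.16 CPM for Mt1 and 0.0595 CPM for Mt2. The annotated antisense gene Gm45774 covers 73.5% of the Mt2 exon bases, and its part in the low Mt2 count was not tested. The other genes of the metal response gave no call in edgeR, DESeq2 or limma-voom. They were the brain metallothionein Mt3 at 0.10, the metal-sensing factor Mtf1 at -0.0018, the zinc exporter Slc30a1 at -0.07 and the heme-degrading enzyme Hmox1 at 0.41 on the log2 scale. At an unadjusted p under 0.05 edgeR gave 1 of these, Hmox1 (adjusted p = 0.600), DESeq2 gave 1 and limma-voom 0. Mt4 was not tested.

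The carbonic anhydrases Car9 and Car12, membrane enzymes that interconvert carbon dioxide and bicarbonate outside the cell, gave 0 calls in edgeR, DESeq2 and limma-voom and 0 unadjusted p under 0.05. Car9 had 14, 13 and 15 counts in knockout and 13, 16 and 13 in wild-type replicates, the fewest of the 28 genes, and its difference was 0.03 on the log2 scale with an SE of 0.325, so that only a large change was detectable. Car12 was at 9.92, 13.8 and 18.4 against 12.5, 17.9 and 14.9 CPM. Its lowest and highest values were both in knockout libraries. The 6 choroid plexus markers, none at 0 in all libraries, summed to 627, 955 and 1327 CPM in knockout and 958, 1073 and 936 CPM in wild-type replicates. Knockout replicate 1 was lowest and knockout replicate 3 highest there too. Among wild-type brains replicate 2 was highest in both, while the lowest was replicate 1 for Car12 and replicate 3 for the markers. The part of these markers in the Car12 values was not tested.

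Of the 4 stress and signalling genes 0 passed in edgeR, DESeq2 or limma-voom, with 1 unadjusted p under 0.05, that of Narf. Narf, which encodes a lamin-binding nuclear protein, was at 142, 137 and 160 CPM in knockout and 119, 124 and 127 CPM in wild-type replicates (log2 fold change 0.25, SE 0.0675, edgeR adjusted p = 0.281). Ndrg1, a stress-induced gene often used as a hypoxia marker, was at 56.8, 33.0 and 45.5 CPM in knockout and 54.0, 29.0 and 30.2 CPM in wild-type replicates. Its 3 highest values were in knockout replicates 1 and 3 and wild-type replicate 1, the libraries with a low share of embryonic beta-globin. These 3 also had the highest epidermal sums, at 279, 56.0 and 229 CPM against 8.78 to 16.4 CPM in the rest. The part of either measure in the Ndrg1 values was not tested. The log2 fold change was 0.26 (SE 0.313, edgeR adjusted p = 0.882) and turned to -0.26 without both Hox-bearing libraries. Errfi1, a feedback inhibitor of the EGF receptor, was at 24.0, 23.0 and 25.1 against 25.4, 25.0 and 23.4 CPM (-0.04 on the log2 scale, SE 0.0717). Wsb1, a ubiquitin ligase adaptor, was at 344, 402 and 401 against 312, 392 and 403 CPM (0.05, SE 0.108), and replicate 1 was the lowest library in both groups.

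Among secreted and surface factors, Mif, a cytokine with tautomerase activity, had the highest level per kilobase of exon of all 30 genes, 244 CPM in wild-type brains. It was at 286, 223 and 257 CPM in knockout and 197, 173 and 176 CPM in wild-type replicates, with no overlap. It did not pass in edgeR (0.49, SE 0.0960, adjusted p = 0.0883) and passed in the authors' deposited table (adjusted p = 3.1e-04). Nrn1, a membrane-anchored neurite growth factor, was at 38.2, 40.7 and 45.9 against 37.9, 41.9 and 42.1 CPM and overlapped between groups (0.03 on the log2 scale, SE 0.0846). Epo, the hormone that drives red cell production, had 1 count in knockout replicate 3, 2 in wild-type replicate 3 and 0 in the other libraries, so that no change could be detected at this depth. edgeR called 0 of the 2 tested genes of this group and limma-voom 0, with 1 unadjusted p under 0.05 in each, and DESeq2 called 1, Mif.

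Of the 4 matrix and extracellular genes edgeR and limma-voom called 0, with 1 unadjusted p under 0.05 in each, and DESeq2 called 1, Tgfbi. Tgfbi, an extracellular adhesion protein induced by TGF-beta, was at 12.8, 13.8 and 11.6 CPM in knockout and 9.47, 9.39 and 8.48 CPM in wild-type replicates (0.48, SE 0.106, edgeR adjusted p = 0.141). Its groups did not overlap. Anxa2, a calcium-dependent membrane-binding protein, was at 122, 83.4 and 86.5 against 125, 66.7 and 66.3 CPM. Its highest values were in replicate 1 of both groups, and the wild-type brains spanned 1.89-fold, the widest wild-type spread of the 28 genes. Its log2 fold change was 0.18 (SE 0.318, edgeR adjusted p = 0.926), became 0.35 without both epidermal libraries (adjusted p = 0.00886) and -0.36 without both Hox-bearing libraries. Beside it, the epidermal sums were 279, 16.4 and 56.0 CPM in knockout and 229, 15.3 and 8.78 CPM in wild-type replicates, and 9 fibroblast markers summed to 1277, 1022 and 1026 against 1740, 912 and 865 CPM. None of these markers was at 0 in all libraries, and their part in the Anxa2 values was not tested. Thbs1, a matrix protein that restrains vessel growth, was at 34.3, 29.5 and 35.6 against 36.5, 31.3 and 30.5 CPM (0.01 on the log2 scale, SE 0.0988). Lgals3bp, a secreted galectin ligand, was at 3.59, 4.36 and 4.86 against 4.31, 4.97 and 3.91 CPM (-0.04, SE 0.166). The groups overlapped for both genes.

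The genes without overlap shared an order among the knockout brains. In 12 of the 14 that were higher in all knockout libraries, knockout replicate 2 held the lowest knockout value, the exceptions being Ankrd37 and Tgfbi, and in 10 knockout replicate 3 held the highest. Over all 1533 tested genes with this separation, knockout replicate 2 was lowest in 54.7% and replicate 3 highest in 48.0%. Knockout replicate 2 is the knockout brain with the high embryonic beta-globin share, 23.6%, and its erythroid markers summed to 1769 CPM against 3536 and 3606 CPM in the other knockout brains. In wild-type replicates the erythroid sums were 2480, 1155 and 1246 CPM. The knockout brains thus lay higher within each beta-globin set, while the genotypes overlapped over all libraries. The part of either measure in this order was not tested. In bulk tissue, a change in RNA per cell and a change in the number of cells of a type cannot be told apart.

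The difference between genotypes was therefore also taken within each beta-globin set, as a difference of mean log2(CPM + 0.5), without a test because each set holds a single library of 1 genotype. In the low set, knockout replicates 1 and 3 against wild-type replicate 1 gave 1.46 for Bhlhe40, 0.56 for Vldlr, 0.94 for Higd1a and 0.91 for Fam162a. In the high set, knockout replicate 2 against wild-type replicates 2 and 3 gave 0.85, 0.43, 0.54 and 0.78 for the same genes. The groups of these 4 genes did not overlap over all 6 libraries, so a value above 0 in both sets was fixed in advance. Only the sizes are informative, and the smaller value was in the high set each time. The same holds for all 14 genes without overlap, which lie above 0 in both sets by that selection. Of the 28, 18 were above 0 in both, with these 14 among them, and 6 differed in sign. Another 4 were below 0 in both (Angptl4, Errfi1, Lgals3bp and Thbs1), where the sign of Angptl4 was likewise fixed. The median was 0.26 in the low set and 0.21 in the high set.

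Other HIF targets were taken as a comparison list. Of 39 targets on a list of glycolytic, mitochondrial, matrix-modifying and secreted genes, 26 rose and 0 fell in edgeR. Over all tested genes 0.624% rose and 0.0358% fell. The median log2 fold change over the 39 was 0.93, and 35 of them lay higher in every knockout library, against 7.84% of all tested genes. The 5 with the lowest p were the lactate exporter Slc16a3 at 3.02, the stanniocalcin Stc2 at 2.5, the mitophagy receptor Bnip3 at 1.90, the pyruvate dehydrogenase kinase Pdk1 at 1.56 and the glycolytic kinase Pgk1 at 1.10. The 26 became 11 without wild-type replicate 2 and 2 without both Hox-bearing libraries. Knockout replicate 2 was the lowest knockout library in 32 of the 35 without overlap, against 54.7% of all 1533 tested genes with this separation. This list was also drawn up with earlier results known, and the difference between the lists was not tested.

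**Figure D4:**
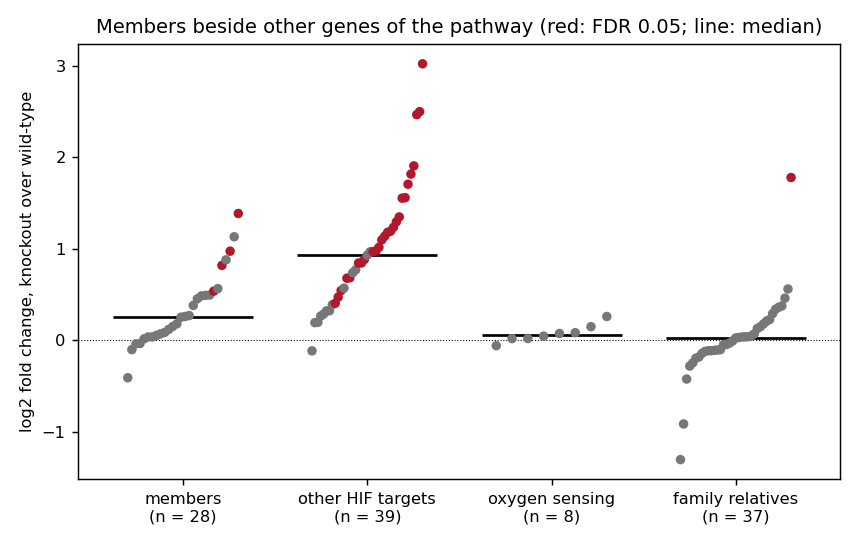
Each point is the log2 fold change of 1 gene, knockout over wild-type, sorted within its list, and the bar is the list's median. Red points passed an FDR of 0.05: 4 of 28 members, 26 of 39 other HIF targets, 0 of 8 oxygen sensing genes (Egln1 and Egln3 are among the other HIF targets) and 1 of 37 family relatives.

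The prolyl hydroxylases Egln1 and Egln3, oxygen sensors that are themselves HIF targets and are counted in that list, both rose, by 0.54 and 1.23 on the log2 scale (edgeR adjusted p = 0.0309 and 0.0087). A separate list held the HIF subunits, Vhl and the sensors Egln2 and Hif1an. Of these 8 genes edgeR, DESeq2 and limma-voom each called 0, with 1 unadjusted p under 0.05 in each, and the median log2 fold change was 0.06. The alpha subunits Hif1a, Epas1 and Hif3a lay higher in every knockout library, 3 of 8 genes against 7.84% of all tested genes. Epas1, the alpha subunit found chiefly in endothelium, was at 0.26 (SE 0.102, edgeR adjusted p = 0.554), while Hif3a was at 0.15, Hif1a at 0.07, the ligase subunit Vhl at 0.08 and the hydroxylase Egln2 at -0.06. The 10 endothelial markers, none at 0 in all libraries, summed to 347 to 382 CPM in knockout and 287 to 350 CPM in wild-type brains. Of the 10, Pecam1 (1.00 on the log2 scale) and Emcn (0.79) rose and Cldn5 (-0.50) fell. Their part in the Epas1 value was not tested.

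Relatives of the listed genes served as a further comparison, most related by family and some by function only, such as the receptor for Epo. Of 37 relatives, 1 rose and 0 fell in edgeR (0.624% and 0.0358% of all tested genes did), and the same in DESeq2 and limma-voom. Their median log2 fold change was 0.02. At an unadjusted p under 0.05 edgeR gave 5 higher and 2 lower, against 905 and 677 of all 19565 tested genes. The relative that rose was Ppp1r3g, another glycogen-targeting subunit and a relative of Ppp1r3c, at 2.19 ± 0.409 CPM in knockout and 0.636 ± 0.0705 CPM in wild-type brains (SD, n = 3 each, log2 fold change 1.78, SE 0.230, edgeR adjusted p = 0.0123). Its call was lost when either of knockout replicates 1 and 3, or of wild-type replicates 2 and 3, was left out (edgeR adjusted p from 0.0540 to 0.0950), while its log2 fold change stayed between 1.62 and 1.88. Among the rest, Bhlhe41, the nearest relative of Bhlhe40, was at 0.56 (SE 0.225, edgeR adjusted p = 0.564), and Higd2a, a relative of Higd1a, at -0.05 (SE 0.0697). Higd1b, another relative of Higd1a, and Car4, a membrane carbonic anhydrase, lay lower in every knockout library without passing, at -0.92 and -1.31 on the log2 scale (edgeR adjusted p = 0.403 and 0.374). Lrp8, the other reelin receptor, was at -0.01, and Ndrg2, Ndrg3 and Ndrg4 lay between -0.12 and 0.18 on the log2 scale.

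**Figure D5:**
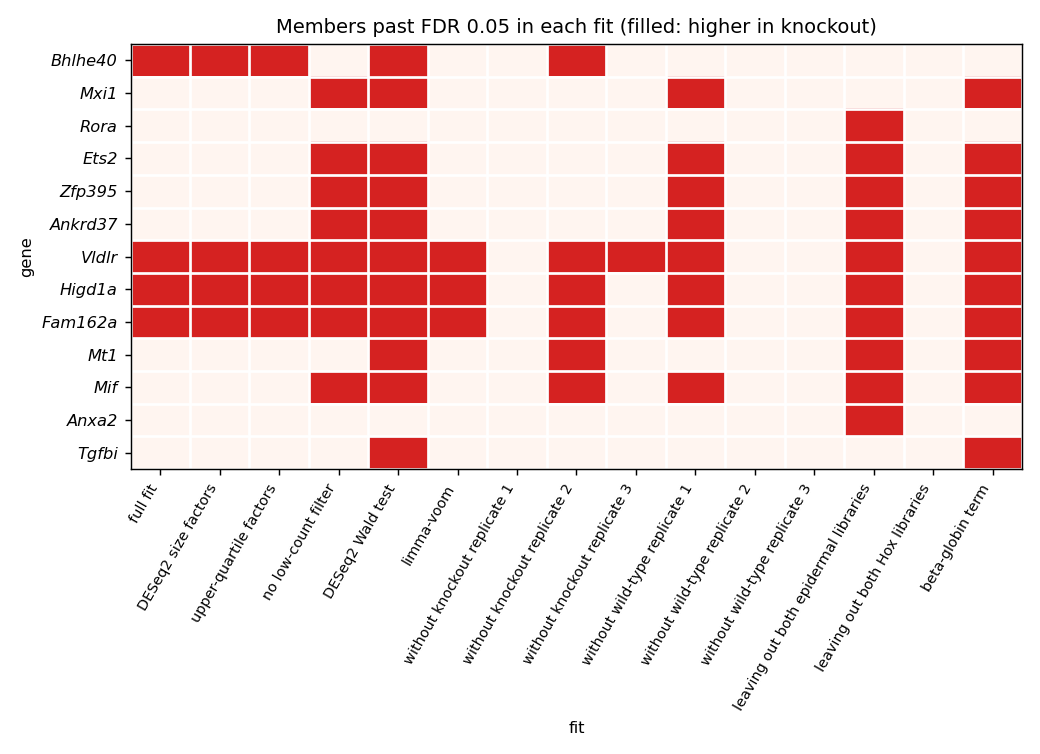
Rows are the 13 genes that passed an FDR of 0.05 in at least 1 of the plotted fits, columns are the fits, and a filled cell marks a gene called higher in knockout. Higd1a, Fam162a and Vldlr are filled in most columns, and the 4 columns that leave out knockout replicate 1, wild-type replicate 2, wild-type replicate 3 or both Hox libraries are empty.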

How the data were processed

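Reads were counted per gene symbol by the authors, and the deposited counts are whole numbers without normalization, per the file headers and values. The submitters' processing notes name STAR 2.5.2a, featureCounts and DESeq2 1.12.4, and list both mm10 and hg19 without saying what each was for. The authors' deposited table of all genes holds a mean normalized signal, a log2 fold change, a Wald score and p-values, per the file headers. How strand was handled, and which annotation release was used, was not given in the sources used here.

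In edgeR 4.0.16 (R 4.3.3), filterByExpr kept 19565 genes, TMM set the library scale, and the robust quasi-likelihood test compared the genotypes, with Benjamini-Hochberg adjustment over those genes at an FDR of 0.05. The scripts were tested on simulated data. CPM uses TMM-scaled totals. The common coefficient of variation between samples was 15.3%, and counting error is small beside it except for Mt2, Epo and Car9. Positions and exon lengths come from GENCODE M21 on GRCm38. Every pair of libraries differed by more than sampling noise. Alternatives were other size factors, no low-count filter, DESeq2 1.42.0, limma-voom (limma 3.58.1), libraries left out, a replicate block, a beta-globin term and stricter thresholds. The 30 genes, the comparison lists and the alternatives were chosen with earlier results of these data known. By the naming rule, all 30 genes are named, with the targeted gene, the 5 lowest p-values of each pathway list, relatives past the threshold, and markers beside a gene they move with. Bhlhe41, Higd1b, Higd2a, Car4, Egln1, Egln3, Lrp8, Ndrg2, Ndrg3, Ndrg4, Xist, Rgs5, Pecam1, Emcn, Cldn5 and the overlapping genes fall outside it and were chosen after their values were seen.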

Additional observations from a re-analysis of the deposited data

How the results depend on the processing

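Against 129 genes called in all, 4 of the 30 higher, 26 other HIF targets higher, 1 relative higher and a median log2 fold change of 0.25 for the 28, the following fits differed. No low-count filter gave 211 genes and 8 of the 30, and the DESeq2 Wald test 309 and 11. A beta-globin term gave 236, 10 and a median of 0.17. Leaving out both epidermal libraries gave 459, 10, a median of 0.37 and 2 relatives. Leaving out both Hox-bearing libraries gave 20 and 0, with 2 other HIF targets and 0 relatives. An FDR of 0.01 gave 49 and 0, with 17 other HIF targets and 0 relatives, and a 2-fold minimum 71 and 1, with 16 other HIF targets. Single libraries left out gave 36 to 388 genes, 0 to 8 of the 30, 11 to 26 other HIF targets, 0 to 2 relatives and medians of 0.16 to 0.39. DESeq2 size factors and upper-quartile factors called the same 4 genes. Fewer samples were fitted in the left-out settings, and the other causes were not tested.

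Replicate numbers were shared by the groups, but deviations from the group means correlated at 0.587, 0.310 and 0.034 for numbers 1, 2 and 3, so the numbers were not taken as pairs. Knockout replicate 1 correlated best with its own number, while knockout replicate 2 did so with wild-type replicate 3 (0.478) and knockout replicate 3 with wild-type replicate 2 (0.100). With the replicate block, 282 genes were called (1.08% of all genes higher), with 11 of the 30 and 2 relatives.

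Over 420 fits of single genes, 330 kept direction and side of the threshold, 24 lost a call, 40 gained one and 26 turned sign. None of the genes that turned sign had passed in the full fit. Without both Hox-bearing libraries the log2 values were -0.049 for Cited2, -0.12 for Hilpda, 0.18 for Car12, -0.26 for Ndrg1, -0.36 for Anxa2 and -0.14 for Thbs1. Without both epidermal libraries they were -0.022 for Car9 and 0.054 for Lgals3bp, and with the beta-globin term -0.026 for Car9 and -0.067 for Thbs1. Over single libraries left out they ran from -0.0081 to 0.17 for Rbpj, -0.040 to 0.14 for Car9, -0.35 to 0.093 for Car12, -0.055 to 0.12 for Wsb1, -0.042 to 0.093 for Nrn1, -0.018 to 0.55 for Anxa2, -0.14 to 0.069 for Lgals3bp and -0.040 to 0.099 for Thbs1. Depth limits Mt2, Epo and Car9, which had at most 16 counts a library.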
